A study of Homo sapiens with 9 samples.

Results

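ATF4 and 9 genes that act with it in the stress response to amino acid shortage and unfolded protein (ATF5, DDIT3, TRIB3, CHAC1, SESN2, DDIT4, CEBPB, CEBPG and NUPR1) were followed in an FPKM table of 19930 genes. They were picked by gene symbol, and all 10 were found in the table. FPKM scales the fragments of a transcript by its length and by the depth of the library and is thus a level per length, so levels can be set beside each other between genes. A gene was tested where its mean over the 9 libraries was at least 1 FPKM, which left 12884 genes and 9 of the 10 members, all but NUPR1. The genes were picked with their levels in all 9 libraries known, so their differences from the control siRNA and between the LINC00673 siRNAs are given as a description, without a P value.

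The cells were labelled MDA-MB-453, a human breast cancer line, and had been transfected with 1 of 3 siRNAs in Lipofectamine 2000. The protocol gives a harvest at 48 h for PCR, and none is stated for sequencing. The siRNAs were a negative control (si-NC) and a pair directed against LINC00673, a long noncoding RNA (si-LINC00673-1 and si-LINC00673-2), with 3 libraries each that carry no suffix, the suffix r1 or the suffix r2. All groups thus share the line and the transfection, and the number of each LINC00673 siRNA was taken from the library titles. LINC00673 itself was not analysed here. Nothing in the labels says that libraries of a group came from separate cultures, so P values measure only the spread between these libraries.

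Libraries held an estimated 23.2 to 27.6 M fragments, worked out from the steps between low FPKM values, and libraries of 1 group correlated at 0.9945 to 0.9959 over genes. The cells were epithelial by their keratins, with KRT8 at 3011 to 3773 FPKM and EPCAM at 287 to 330 FPKM over the 9 libraries. FOXA1, a luminal factor expected in the labelled line, was at or near 0, at 0 to 0.04 FPKM, GATA3 and SPDEF were at 0.41 to 0.88 and 0.57 to 1.24 FPKM, and ERBB2 stood at 11.8 to 17.8 FPKM. The data thus go against the label for FOXA1, and the cells are called here the cells labelled MDA-MB-453. Of 3 leukocyte and 3 endothelial markers in the table all stayed below 1 FPKM. Summed over 5 fibroblast markers, of which COL1A1 and LUM made up nearly the whole, the control libraries gave 9.32 to 9.84 FPKM, those of si-LINC00673-1 gave 12.1 to 12.6 and those of si-LINC00673-2 gave 11.1 to 12.4. Over 4 basal markers, mostly KRT17, the sums were 9.36 to 11, 7.41 to 8.43 and 5.93 to 6.55 FPKM in the same order, and over 8 luminal and apocrine markers 7205 to 7840, 6077 to 6713 and 6218 to 6875 FPKM. The part of other cells in the results was not tested, and in bulk RNA fewer cells of a type and less RNA per cell cannot be told apart.

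ATF4 is a bZIP transcription factor whose mRNA is translated more efficiently when the initiation factor eIF2 is phosphorylated by kinases that sense amino acid shortage, unfolded protein, double-stranded RNA or haem deficiency. Much of its control is therefore on translation, which mRNA levels do not show. It pairs with C/EBP family partners on a composite element and switches on genes for amino acid import, synthesis and tRNA charging. DDIT3 (CHOP), TRIB3, CHAC1, SESN2 and DDIT4 belong to the same programme and to the cell death, growth brake and redox responses that follow it.

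The composite element of ATF4 and C/EBP was searched as TGATGNAA on both strands of RefSeq promoters (GRCh38.p14, from 250 bases before to 50 after each start). It was found in 1270 of 35116 promoters (3.62%) and in those of 236 of 9393 tested genes (2.51%). Of the 9 members with a promoter in the table, CHAC1 and CEBPG held it, and no other member did within this window. Among the listed ATF4 targets in amino acid supply, 12 of 27 genes with a promoter held it (44.4%). Among those in signalling and stress, 4 of 12 did (33.3%), with ATF3 among them. A match is only a description of the letters. The windows below, of 30 bases each, show the element of both members and of 4 amino acid genes, in capitals. These 4 are some of the listed amino acid genes whose element lies wholly upstream of the start. The window of CHAC1 is chr15:40953251-40953280 on the + strand, with the element 209 bases before the start. That of CEBPG is chr19:33374060-33374089 (+), 42 bases before the start, and that of ASNS chr7:97872458-97872487 (-), 68 bases before it. AARS has chr16:70289675-70289704 (-), 187 bases before the start, GARS has chr7:30594834-30594863 (+), 33 bases before it, and SLC1A5 has chr19:46784893-46784922 (-), 97 bases before it. In CHAC1, AARS and GARS the element reads as its reverse complement.
CHAC1: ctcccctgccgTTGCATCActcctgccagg
CEBPG: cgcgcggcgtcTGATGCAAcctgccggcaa
ASNS: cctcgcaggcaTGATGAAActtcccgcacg
AARS: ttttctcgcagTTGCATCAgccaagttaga
GARS: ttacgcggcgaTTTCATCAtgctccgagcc
SLC1A5: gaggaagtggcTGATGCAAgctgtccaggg

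The transcription factors of the group split into those that were lower with both siRNAs and DDIT3, which was higher with both. ATF4 (NCBI gene 468, GRCh37.p13 chr22:39916564-39918691) stood at 367.44, 353.83 and 353.13 FPKM with si-NC. Its si-LINC00673-1 libraries gave 282.53, 272.45 and 279.06 FPKM, and its si-LINC00673-2 libraries 295.98, 294.51 and 298.73 FPKM. Every library of either siRNA was below every si-NC library, and the means were 1.29- and 1.21-fold lower. On the log2(FPKM + 1) scale the differences were -0.36 and -0.27 (SE 0.026 each), below the fold of 1.3 used for calls. After scaling by the median ratio, and likewise with a correction for GC content, the second was -0.17. In the order of all tested genes, 16.5% and 32.4% had a lower log2 fold change than ATF4.

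ATF5, a close relative of ATF4 that the same stress signals induce (NCBI gene 22809, chr19:50431959-50437193), was a low gene in these cells. Its levels were 5.36, 4.55 and 4.2 FPKM with si-NC, 1.48, 1.55 and 1.17 with si-LINC00673-1 and 1.53, 1.69 and 1.71 with si-LINC00673-2. The si-NC libraries were the 3 highest, and the means were 3.36- and 2.86-fold lower with the siRNAs. The log2 fold changes were -1.25 and -1.10 (SE 0.087 each). By the estimated depth these levels stood for 249 to 323 fragments with si-NC and 64 to 91 with the siRNAs.

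CEBPB, a bZIP partner of ATF4 (NCBI gene 1051, chr20:48807120-48809227), was measured at 40.04, 35.14 and 39.93 FPKM with si-NC. Its levels were 20.16, 20.24 and 20.35 FPKM with si-LINC00673-1, and 18.67, 24.36 and 22.06 FPKM with si-LINC00673-2. The control libraries lay above the rest, and the means were 1.89- and 1.77-fold lower (log2 -0.89 and -0.80, SE 0.083 each). CEBPB had a GC content of 66.2%, above that of 97.7% of tested genes with a GC value, and GC-rich genes had a lower median with both siRNAs, at -0.30 and -0.35 over the 2272 genes of highest GC content. With a correction for GC content the CEBPB differences were -0.40 and -0.30, and the second no longer reached the fold for a call. CEBPG, another partner that binds the element with ATF4 (NCBI gene 1054, chr19:33864575-33873592), stood at 26.32, 26.92 and 26.28 FPKM with si-NC, 21.8, 21.61 and 22.22 with si-LINC00673-1 and 19.17, 19.04 and 18.07 with si-LINC00673-2. Its 3 groups did not overlap, in the order si-NC, si-LINC00673-1, si-LINC00673-2, and the log2 fold changes were -0.27 and -0.48 (SE 0.033 each). With libraries scaled by the median ratio the second was -0.38 and fell out of the calls.

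DDIT3 encodes CHOP, the C/EBP-type factor linked to cell death under lasting stress (NCBI gene 1649, chr12:57910371-57914300). Its levels were 96.8, 93.14 and 94.7 FPKM with si-NC, 116.01, 110 and 108.67 with si-LINC00673-1 and 164.19, 160.53 and 171.66 with si-LINC00673-2. The groups did not overlap, and the control was the lowest. The means were 1.18- and 1.74-fold higher with the siRNAs, with log2 fold changes of 0.23 and 0.80 (SE 0.035 each).

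**Figure D1:**
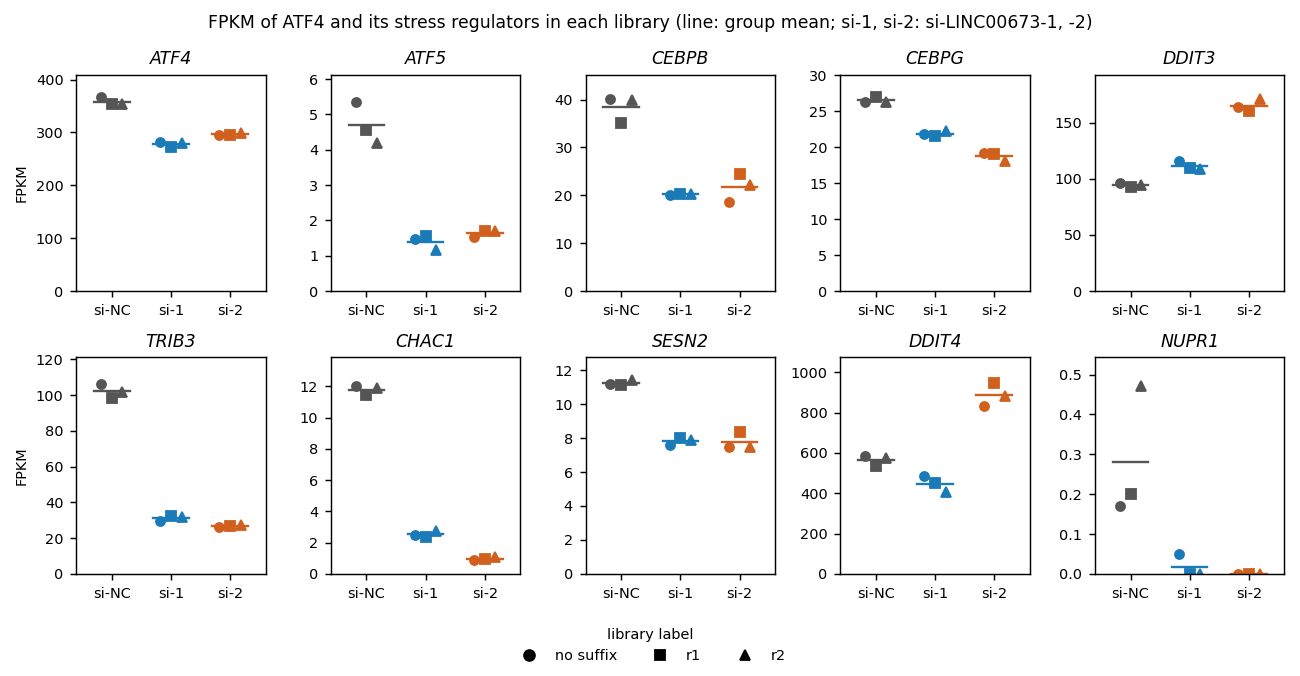
FPKM of each of the 10 genes (panels; y axis in FPKM) in the 9 libraries, as 3 points per siRNA with a line at the group mean. ATF4, ATF5, TRIB3, CHAC1, CEBPB, CEBPG and SESN2 are lower with both siRNAs, as is NUPR1, which is near 0 throughout. DDIT3 is higher with both. DDIT4 lies between 406 and 483.21 FPKM with si-LINC00673-1 and between 830.71 and 949.07 with si-LINC00673-2.

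Among the effectors, TRIB3 and CHAC1 differed most from the control. TRIB3, a pseudokinase that holds ATF4 and AKT signalling in check (NCBI gene 57761, chr20:361273-378203), was at 106.07, 98.52 and 101.59 FPKM with si-NC. The si-LINC00673-1 libraries gave 29.57, 32.61 and 32.04 FPKM, and the si-LINC00673-2 libraries 26.49, 26.74 and 27.15 FPKM. All 3 groups were apart, and the means were 3.25- and 3.81-fold lower than with si-NC (log2 -1.67 and -1.89, SE 0.042 each). Only 34 and 25 of the 12884 tested genes had a lower log2 fold change.

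CHAC1, an enzyme that breaks down glutathione (NCBI gene 79094, chr15:41245347-41248717), carries the element printed above. Its levels were 12.04, 11.47 and 11.9 FPKM with si-NC, 2.52, 2.34 and 2.73 with si-LINC00673-1 and 0.86, 0.97 and 1.08 with si-LINC00673-2. These stood for an estimated 517 to 583, 101 to 120 and 37 to 44 fragments. The groups did not overlap, and the means were 4.67- and 12.2-fold lower than with si-NC. The added 1 FPKM makes the change of so low a gene look smaller on the log2 scale, where the differences were -1.86 and -2.70 (SE 0.06 each). A lower log2 fold change was seen in 22 genes with si-LINC00673-1 and in 5 with si-LINC00673-2.

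SESN2, a leucine sensor that restrains mTORC1 (NCBI gene 83667, chr1:28585963-28609002), gave 11.2, 11.13 and 11.39 FPKM with si-NC. Its levels were 7.61, 7.98 and 7.87 FPKM with si-LINC00673-1 and 7.49, 8.34 and 7.45 FPKM with si-LINC00673-2. The siRNA groups overlapped each other and lay below the control, at means 1.44- and 1.45-fold lower (log2 -0.47 and -0.48, SE 0.046 each). With a correction for GC content these were -0.32 and -0.27, neither of which reached the fold for a call.

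DDIT4 (REDD1), another brake on mTORC1 (NCBI gene 54541, chr10:74033677-74035794), was the one member on opposite sides of the control. Its levels were 587.26, 534.11 and 575.07 FPKM with si-NC, 483.21, 451.65 and 406 with si-LINC00673-1 and 830.71, 949.07 and 882.47 with si-LINC00673-2. Every si-LINC00673-1 library was below every si-NC library and every si-LINC00673-2 library above, with means 1.27-fold lower and 1.57-fold higher. The log2 fold changes were -0.34 and 0.65 (SE 0.067 each), and the first reached the fold for a call without the si-LINC00673-1 library with no suffix (-0.40) or without the si-NC library r1 (-0.38).

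NUPR1, a small stress-induced chromatin protein (NCBI gene 26471, chr16:28548662-28550495), was near 0 in every library. It was listed at 0.17, 0.2 and 0.47 FPKM with si-NC, at 0.05, 0 and 0 with si-LINC00673-1 and at 0 in the 3 libraries of si-LINC00673-2. No fold is given, and NUPR1 was below the limit for a test.

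By the call used here, a fold of at least 1.3 with an unadjusted limma P of at most 0.05, 5 of 9 members were called lower and 0 higher with si-LINC00673-1, where 15.6% of tested genes were called lower and 11.1% higher. The 5 were ATF5, TRIB3, CHAC1, SESN2 and CEBPB. With si-LINC00673-2 these 5 and CEBPG were called lower and DDIT3 and DDIT4 higher, where 23.1% of tested genes were called lower and 11% higher. Called lower with both were the same 5 members and 13.6% of tested genes. The median log2 fold change of the 9 was -0.47 and -0.48, against 0.003 and -0.095 over all tested genes. All 10 members, NUPR1 included, had no overlap with si-NC for either siRNA, which held for 70% and 73% of tested genes. Because these contrasts were used in picking the genes, nothing is read from the counts. The siRNAs share the si-NC libraries, so their differences from it are not independent.

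**Figure D2:**
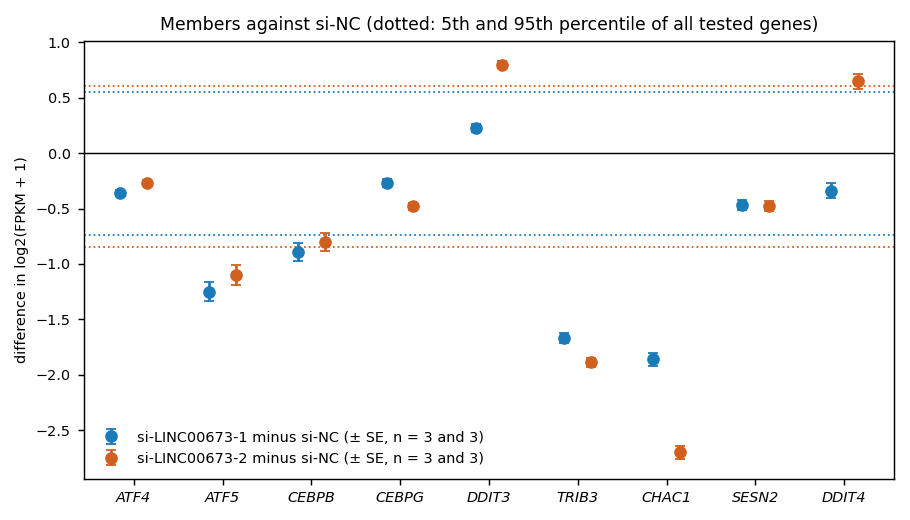
Log2 fold change of mean log2(FPKM + 1) against si-NC (y axis) for the 9 tested members with each siRNA; bars are SE and the dotted lines, in each siRNA's colour, mark the limits beyond which the lowest and the highest 5% of all tested genes lie. CHAC1 reaches -1.86 and -2.70, and DDIT4 is below 0 with si-LINC00673-1 (-0.34) and above with si-LINC00673-2 (0.65).

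Levels also shifted against each other. DDIT3 stood at 0.265 ± 0.00279 of the ATF4 level with si-NC (SD, n = 3), at 0.401 ± 0.0108 with si-LINC00673-1 and at 0.558 ± 0.0151 with si-LINC00673-2, and the ranges did not overlap. TRIB3 went the other way, at 0.285 ± 0.00565 of the ATF4 level in the control and at 0.113 ± 0.00767 and 0.0904 ± 0.000775. The ratio of TRIB3 to DDIT3 was 1.08 with si-NC, 0.282 with si-LINC00673-1 and 0.162 with si-LINC00673-2. DDIT4 was the highest member in all 3 groups and ATF4 the next, while TRIB3 stood above DDIT3 with si-NC and below it with both siRNAs. With si-LINC00673-2 the levels of CEBPB and CEBPG overlapped, and CHAC1 was below ATF5. ATF4, DDIT3 and DDIT4 together made up 83.9% of the members' summed FPKM in the control libraries, 90.2% to 91.4% in those of si-LINC00673-1 and 94.5% to 94.6% in those of si-LINC00673-2.

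The siRNAs were also compared with each other. Their levels too were known when the genes were picked, so the differences on the log2 scale are a description. They are given with 95% intervals from the limma fit. The control levels do not enter the differences, but the spread behind the intervals was estimated over all 9 libraries. DDIT3 was higher with si-LINC00673-2 by 0.56 (0.49 to 0.64), and DDIT4 by 0.99 (0.84 to 1.14). CHAC1 had a log2 difference of -0.84 (-0.98 to -0.71), which became -1.30 with 0.1 FPKM added in place of 1. In each of these the 3 libraries of 1 siRNA lay wholly to 1 side of the other. By the call used above, 2.19% of all tested genes were higher and 5.45% lower in this contrast, and 2 and 1 of 9 members were, from which nothing is read.

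Smaller differences between the siRNAs changed in size with the scaling. TRIB3 differed by -0.22 (-0.31 to -0.13), and by -0.12 with libraries scaled by the median ratio. CEBPG differed by -0.21 (-0.29 to -0.14), and by -0.11 when scaled. ATF4 was higher by 0.09 (0.03 to 0.15), and by 0.20 when scaled. The intervals of the remaining members included 0, with a difference of -0.01 for SESN2 (-0.11 to 0.09), 0.09 for CEBPB (-0.10 to 0.27) and 0.14 for ATF5 (-0.05 to 0.34). The median over all tested genes was -0.081 here and 0.01 after scaling. The groups did not overlap in 6 of 9 members, against 53.7% of tested genes.

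**Figure D3:**
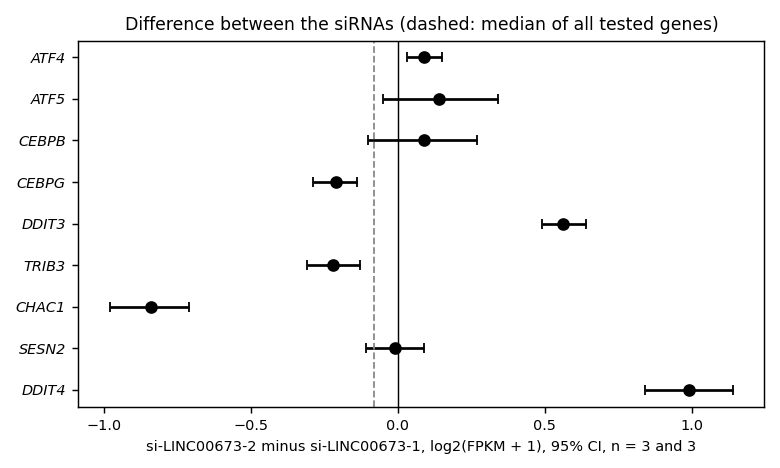
Log2 difference si-LINC00673-2 minus si-LINC00673-1 (x axis) with its 95% interval for the 9 tested members, with a dashed line at the median of all tested genes (-0.081). The interval starts at 0.49 for DDIT3 and 0.84 for DDIT4, ends at -0.71 for CHAC1, and includes 0 for SESN2, CEBPB and ATF5.

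Processing choices moved the sizes more than the directions. After scaling, ATF4 was at -0.36 and -0.17, TRIB3 at -1.67 and -1.79 and CHAC1 at -1.85 and -2.63. With the GC correction ATF4 was at -0.33 and -0.17, TRIB3 at -1.42 and -1.59, CHAC1 at -1.56 and -2.36, ATF5 at -0.96 and -0.78, and DDIT4 at -0.23 and 0.82. The share of lower among called genes shifted too: with si-LINC00673-2 it was 67.8% (2974 lower, 1411 higher), 53.2% after scaling and 49.1% after the GC correction, and with si-LINC00673-1 it was 58.3%, 58.4% and 49.4%. Between the siRNAs it was 71.3%, 38% and 43%.

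**Figure D4:**
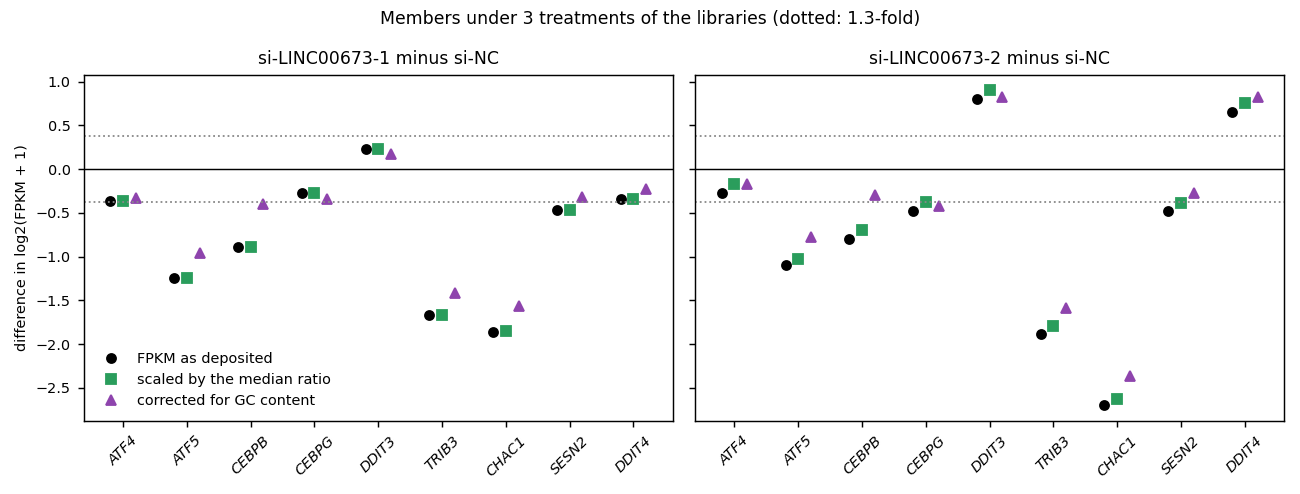
Log2 fold change against si-NC (y axis) of each tested member with si-LINC00673-1 (left) and si-LINC00673-2 (right) under the settings named in the legend. CEBPB moves from -0.89 to -0.40 with the GC correction in the left panel, and no member changes sign.

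The wider pathway was followed in lists drawn up with earlier results of these data known, counted by the same call. Values of single list genes are without a GC correction, and GC-rich genes had a lower median with both siRNAs. Of the genes named below, ADM2 (68.2%), BBC3 (64.8%), CEBPA (65.9%), CEBPD (70%), MLST8 (63.1%) and SDF2L1 (65.5%) had a high GC content. Its part in their differences was not tested. Of 34 tested ATF4 targets in amino acid supply, 25 fell and 0 rose with si-LINC00673-1 (73.5% lower, against 15.6% of tested genes), and 29 fell and 1 rose with si-LINC00673-2 (85.3%, against 23.1%). Their median log2 fold changes were -0.82 and -0.83. ASNS, asparagine synthetase, stood at 159.93, 167.61 and 157.19 FPKM with si-NC, 34.59, 34.07 and 34.47 with si-LINC00673-1 and 28.65, 28.51 and 29.55 with si-LINC00673-2. Its siRNA libraries lay far below the control (log2 -2.20 and -2.44, SE 0.031 each). CBS, cystathionine beta-synthase, changed by -2.43 and -2.74 (SE 0.11 each). Whether any of its reads were shared with a near-identical sequence was not examined, and its level is given with that limit. ALDH18A1, which makes proline precursors, stood apart at 0.37 and 0.42, and passed the fold with si-LINC00673-2 alone. Between the siRNAs 2 of the 34 were called lower and 0 higher.

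ATF4 targets in signalling and stress were called in both directions. With si-LINC00673-1, 4 of 16 were higher and 4 lower (25% each, against 11.1% and 15.6% of tested genes). With si-LINC00673-2, 5 were higher and 4 lower (31.2% and 25%, against 11% and 23.1%), and the medians were -0.003 and 0.12. INHBE, an activin subunit, fell from 9.51 ± 0.0945 FPKM (SD, n = 3) to 1.51 ± 0.0643 and 1.23 ± 0.0802. ADM2, a secreted peptide, fell by 1.31 and 1.82 on the log2 scale. ATF3, a bZIP factor induced by many stresses, rose from 7.01 ± 0.233 FPKM to 11.9 ± 0.289 and 19.4 ± 0.762, and HMOX1, haem oxygenase, rose by 0.77 and 0.71 on the log2 scale. Between the siRNAs 5 of the 16 were called higher and 2 lower, against 2.19% and 5.45% of tested genes. ATF3 differed between the siRNAs by 0.66 (SE 0.041), the same direction as DDIT3, and ADM2 by -0.51 (SE 0.055). The largest difference of the list was that of TXNIP, at -0.92 (SE 0.047). Against si-NC it was at 0.65 with si-LINC00673-1, a call, and at -0.28 with si-LINC00673-2. These differences are a description. With the GC correction 8 rather than 5 of this list were called higher with si-LINC00673-2.

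Of 7 tested genes listed as CHOP targets in cell death, 4 rose and 1 fell with each siRNA (57.1% and 14.3%), at medians of 0.47 and 0.66. The 4 were PPP1R15A, PMAIP1, ERO1A and TRIB1 with each siRNA, and TRIB1 is also counted as a paralog of TRIB3. TNFRSF10B (log2 0.06 and -0.11) and BCL2L11 (0.21 and 0.15) were called with neither. Nothing is read from the counts of so short a list. Over all tested genes 11.1% were called higher and 15.6% lower with si-LINC00673-1, and 11% and 23.1% with si-LINC00673-2. PMAIP1 (NOXA), a BH3 protein, rose by 0.79 and 1.11 on the log2 scale. BBC3 (PUMA), another BH3 protein, fell (log2 -1.89 and -1.20), and stood at 17.57, 14.61 and 15.66 FPKM with si-NC against 2.96 to 4.58 with si-LINC00673-1 and 5.0 to 7.23 with si-LINC00673-2. PPP1R15A (GADD34), which brings phosphatase to eIF2, rose by 0.47 and 1.07, and differed between the siRNAs by 0.59 (SE 0.065).

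Genes around eIF2, which acts upstream of ATF4, were called in both directions. The list was drawn up with these data known, so nothing is read from its counts. Of 19 eIF2 kinases, phosphatase subunits and their partners, 5 rose and 3 fell with si-LINC00673-1 (26.3% and 15.8%, against 11.1% and 15.6% of tested genes). With si-LINC00673-2, 4 rose and 5 fell (21.1% and 26.3%, against 11% and 23.1%), and the medians were -0.064 and -0.005. PPP1R15A, also listed as a CHOP target, was among those called higher with each siRNA. Of the kinases, EIF2AK2 was called higher with si-LINC00673-1 alone (log2 0.52 and 0.29). EIF2AK1 (-0.16 and -0.31), EIF2AK3 (-0.10 and -0.30) and EIF2AK4 (0.20 and 0.09) were called with neither siRNA. GCN1, the partner of the amino acid sensing kinase, rose by 0.69 and 0.61 on the log2 scale. EIF2S2, the beta subunit of eIF2, fell by 0.61 and 0.84, and KIAA0141, which encodes the mitochondrial stress messenger DELE1, fell by 0.63 and 0.73. After scaling and after the GC correction 3 rather than 5 of this list were called lower with si-LINC00673-2.

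**Figure D5:**
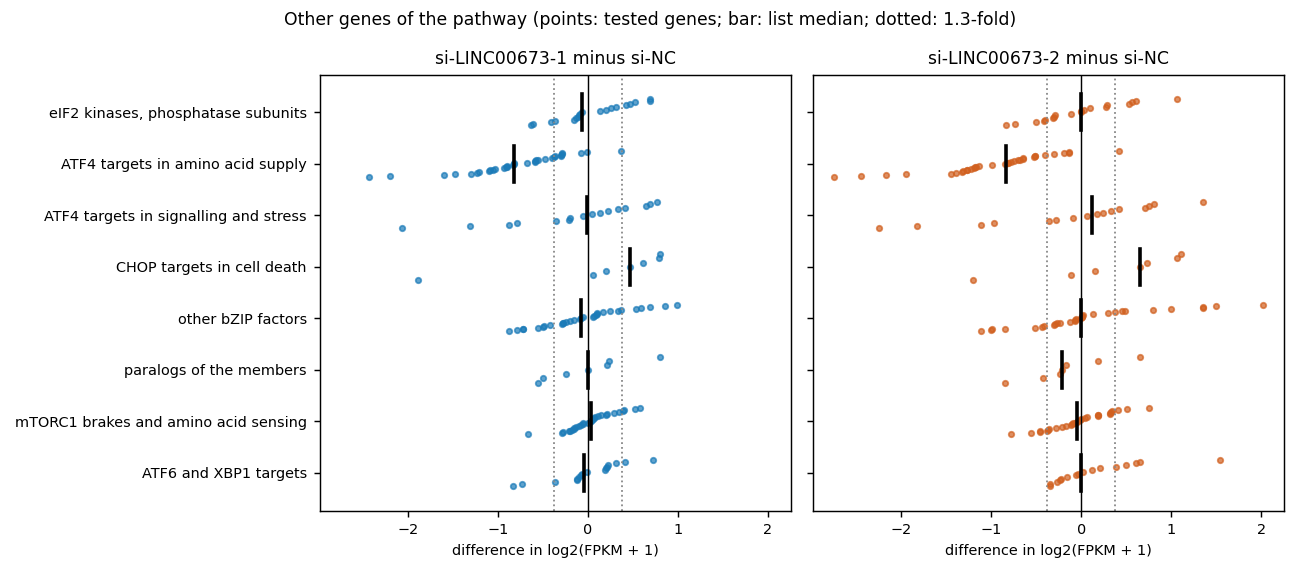
Log2 fold change against si-NC (x axis) of each tested gene in the 8 lists, with si-LINC00673-1 (left) and si-LINC00673-2 (right). Bars mark the list median and dotted lines the fold of 1.3. The amino acid supply targets have medians of -0.82 and -0.83, while the other 7 lists have medians between -0.21 and 0.66.

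Other bZIP factors, the family from which ATF4 draws its partners, were called 5 higher and 8 lower of 31 with si-LINC00673-1 (16.1% and 25.8%, against 11.1% and 15.6% of tested genes). With si-LINC00673-2, 9 were higher and 7 lower (29% and 22.6%, against 11% and 23.1%). JUN stood at 60.4, 56.27 and 61.71 FPKM in the control libraries and rose to 129.85, 121.03 and 108.64 FPKM with si-LINC00673-1 and 225.25, 264.18 and 244.09 with si-LINC00673-2. NFIL3, a repressor of the family, rose by 0.86 and 1.36 on the log2 scale. JDP2 fell by 0.79 and 1.12, and ATF6B fell from 26.3 ± 0.573 FPKM (SD, n = 3) to 13.9 ± 0.254 and 12.7 ± 0.958. Between the siRNAs 8 of the 31 were called higher and 0 lower, against 2.19% and 5.45% of tested genes.

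Of 7 tested paralogs of the members, 1 was called higher and 2 lower with each siRNA (14.3% and 28.6%, against 11.1% and 15.6% of tested genes with si-LINC00673-1 and 11% and 23.1% with si-LINC00673-2). TRIB1 rose by 0.80 and 0.66 on the log2 scale, while TRIB3 was lower. CEBPA fell by 0.55 and 0.84. CEBPD fell by 0.50 with si-LINC00673-1 and had a log2 fold change of -0.24 with si-LINC00673-2. Both are as rich in GC as CEBPB or nearly so, and their values are without a GC correction. TRIB2 had -0.24 and fell by 0.43. SESN1 and SESN3 stood at 0.00 and -0.21 and at 0.21 and 0.19, and CHAC2 at 0.24 and -0.17, none of them a call against si-NC. CHAC2 was the one paralog called between the siRNAs, at -0.40 (SE 0.081), a call not made after scaling. DDIT4L, NUPR2 and CEBPE were below the limit for a test.

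The list of mTORC1 brakes and amino acid sensing genes, among which SESN2 and DDIT4 act, also holds mTORC1 subunits and Rag GTPases. Of its 30 tested genes, 4 were called higher and 1 lower with si-LINC00673-1 (13.3% and 3.33%, against 11.1% and 15.6% of tested genes). The 4 were MTOR, RPTOR, RRAGA and RRAGC, while the brakes TSC1 and TSC2 were called with neither siRNA. With si-LINC00673-2, 3 were higher and 5 lower (10% and 16.7%, against 11% and 23.1%), and 7 higher and 3 lower after scaling. RRAGA, a Rag GTPase, rose by 0.58 and 0.76 on the log2 scale, and RPTOR, the mTORC1 scaffold, by 0.40 and 0.51. MLST8, a subunit of mTOR complexes, fell by 0.67 and 0.78, and WDR59 had a log2 fold change of -0.28 and fell by 0.46. Targets of ATF6 and XBP1, which answer unfolded protein by other routes, were 2 higher and 2 lower of 16 with si-LINC00673-1 (12.5% each, against 11.1% and 15.6% of tested genes). With si-LINC00673-2, 5 were higher and 0 lower (31.2% and 0%, against 11% and 23.1%). HSPA5 (BiP), the chaperone of the endoplasmic reticulum, rose from 164 ± 1.19 FPKM (SD, n = 3) to 273 ± 8.7 and 480 ± 6.81. It differed between the siRNAs by 0.81 (SE 0.028). PDIA4 rose by 0.41 and 0.61, while SDF2L1 fell by 0.83 with si-LINC00673-1 and was at -0.35 with si-LINC00673-2.

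The profiles most like that of ATF4, by Euclidean distance over the 9 libraries after each was centred on its si-NC mean, were RPL7A (0.0644), RPS23 (0.0697), ERGIC3 (0.0767), DOLPP1 (0.0923) and RNF5 (0.0946), of 11394 named tested genes. Those most like CHAC1 were ASNS (0.76), NOXA1 (0.801), NOTUM (0.859), INHBE (0.896) and ROGDI (1.01). The sense strand of si-LINC00673-2 shared 14 or more bases in a row with transcripts of 288 of 11380 tested genes (2.53%) and that of si-LINC00673-1 with 1 gene. None of the members was among them, with longest shared runs of 6 to 8 bases for si-LINC00673-1 and 6 to 12 for si-LINC00673-2. The other strand was not searched and shorter matches were not counted over the tested genes. Direct effects of the siRNAs on the members were thus not tested.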

How the data were processed

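RNA of siRNA-transfected cells labelled MDA-MB-453 was sequenced on the BGISEQ-500 platform in 9 libraries, 3 per group. The authors deposited 1 table with FPKM values per gene and library, rounded by them, after an alignment for which the submitters' processing notes name Bowtie2 (version 2) and GRCh37.p13; the counter is not given in the sources used here. The table also holds the authors' log2 ratios between combined groups and their p-values and q-values, deposited as columns of their own and not used. FPKM is given more than once per library in identical columns, of which the first was read. Of 19934 lines, 4 had no values.

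The FPKM were analysed as log2(FPKM + 1) in limma 3.58.1 (R 4.3.3; lmFit, eBayes with trend, all 9 libraries, the siRNA as the only factor), over the 12884 genes whose mean reached 1 FPKM. A gene was called from a fold of 1.3 with an unadjusted P up to 0.05, after the limits stated in the study's methods, and P values were also adjusted by Benjamini-Hochberg over all tested genes. The fit was tested on simulated data. The spacing of low FPKM values gave the depth, which bears on counting error only. Correction for GC content used a lowess fit (span 0.3) per library on GENCODE 29 transcripts, with a value for 88.2% of tested genes. Promoters came from RefSeq (GRCh38.p14), whose coordinates were not mixed with those of the table. Python 3.11.15, pandas 2.3.3 and matplotlib 3.10.9 were used.

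The members and lists were chosen with earlier results of these data known, so no P value is given for their genes in any contrast. Besides the members, the rule named up to 2 genes per list with the largest mean rise and 2 with the largest mean fall over both siRNAs, at an adjusted P of at most 0.05 in 1 direction with both, all paralogs of the members, and the 5 genes closest in profile to ATF4 and to CHAC1. AARS, GARS and SLC1A5 were named after their sequences were seen. EIF2AK1, EIF2AK2, EIF2AK3, EIF2AK4, ERO1A, TNFRSF10B, BCL2L11, TXNIP, MTOR, RRAGC, TSC1 and TSC2 were named outside the rule. Some genes stand on more than 1 list (ATF3, JDP2, PPP1R15A, TRIB1, CEBPA, CEBPD, SESN1, SESN3 and EIF4EBP1). Alternatives were an added 0.1 FPKM, a minimum mean of 5 FPKM, no minimum, the adjusted P, median-ratio scaling, GC correction, fits of 6 libraries, a replicate block and each library left out. 1 marker of the labelled line is not reported here.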

Additional observations from a re-analysis of the deposited data

Results flagged for a closer look

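For 3 members the effects of the siRNAs against si-NC differed in the fit of the difference itself, past the fold of 1.3. The log2 difference si-LINC00673-2 minus si-LINC00673-1 was 0.56 for DDIT3, -0.84 for CHAC1 and 0.99 for DDIT4. These genes were picked with their levels in all 9 libraries known, so the differences are a description and support nothing further. DDIT3 was higher than the control with both siRNAs and CHAC1 lower with both, while DDIT4 lay below the control with si-LINC00673-1 and above it with si-LINC00673-2.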

How the results depend on the processing

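Of 456 log2 fold changes of members recomputed under the alternatives, 4 were no longer called and 2 became called. None was counted as a reversed call, and the rest kept their side of the limits. A value near 0 could change sign: SESN2 between the siRNAs was at -0.01, 0.08 with scaling and 0.05 with the GC correction. The genes called over the whole table numbered 3436, 4385 and 984 (si-LINC00673-1, si-LINC00673-2, and between the siRNAs). With a minimum mean of 5 FPKM, which tests fewer genes, they were 2211, 2714 and 547. Between the siRNAs they were 1656 with 0.1 FPKM added and 589 with the GC correction, and the cause was not tested. The median of the members against si-NC was -0.47 and -0.48. With the GC correction it was -0.34 and -0.30, and with scaling the second was -0.39. Between the siRNAs it was 0.087 and 0.19 with scaling, and leaving out 1 library gave 0.0032 to 0.093, the lowest without the si-LINC00673-2 library r1. Leaving out 1 library gave 3339 to 3592, 4296 to 4464 and 939 to 1117 called genes, and -0.49 to -0.46 and -0.53 to -0.46 as members' medians against si-NC.

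Samples with the same suffix did not deviate together (r of -0.239 to 0.104 over 9 pairs, 1 above 0.1). With deviations from means of only 3 libraries per group, this cannot settle whether the suffix pairs them. A replicate block on it gave 3449, 4400 and 988 called genes. The adjusted P in place of the unadjusted gave 3413, 4372 and 951. Depth limits ATF5, CHAC1 and NUPR1 most.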
